A study of Neotoma stephensi and Rattus norvegicus with 6 samples.

Results

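The 6 genes described here are keratins of the suprabasal layers, the cells that have left the basal layer of a stratified squamous epithelium: Krt4 and Krt13 of the esophageal type, Krt1 and Krt10 of the epidermal type, and Krt76 and Krt78. All 6 were found by gene symbol in the deposited counts, among 40 keratin genes and 15481 genes in all. They were chosen by their function together with their measured counts in the 2 species, which were already known. The differences between the species in these genes are therefore given as a description, without a p-value. Foregut tissue, from the fornix ventricularis of the stomach, was compared between 3 Stephens' woodrats (Neotoma stephensi) and 3 Sprague Dawley lab rats (Rattus norvegicus). The woodrats were wild-caught herbivores that harbor a dense foregut microbial community and were fed juniper foliage before dissection. The lab rats were purchased, kept for months in the same room as woodrats of the genus Neotoma, and fed standard chow. All animals were female. The sample labels call all of them virgin, whereas the methods of the study leave this open for the woodrats, and no ages are given. Species, diet, origin and microbial community cannot be told apart in this design, and the question it addresses is which transcripts of the foregut wall differ in a rodent that hosts foregut microbes.

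Keratins form the intermediate filaments of epithelial cells, and each filament is built from pairs of an acidic type I and a basic type II keratin. In stratified epithelia the basal cells make Krt5 with Krt14, and Krt15 in many of them. On leaving the basal layer they switch to another pair, which in the lining of the mouth and esophagus is the type II keratin Krt4 with the type I keratin Krt13, and in the cornified epidermis the type II keratin Krt1 with the type I keratin Krt10. Krt76 is a type II keratin of keratinized oral mucosa, and Krt78 is a type II keratin of suprabasal cells. The nonglandular foregut of rodents is lined by a keratinized stratified epithelium, so transcripts of either pair can be present in it.

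Between 5439642 and 7932637 reads were counted per animal, and 3 counts corresponded to between 0.355 and 0.586 CPM (library-scaled read counts, normalized with the TMM method), far below every value of the 6 keratins. Of 12603 genes tested with edgeR's quasi-likelihood test, 2516 were differentially abundant at an FDR below 0.01, 1292 toward woodrats and 1224 toward lab rats. Markers of stratified squamous epithelium were present in every library, with all 13 of the listed genes measured. Of the 13 listed markers of the glandular stomach, 9 were in the files. Their summed level was at most 13.5 CPM in any animal. Atp4a made up most of this sum in the lab rats, at 8.31, 9.76 and 6.74 CPM in lab rats 1, 2 and 3. The woodrats were lower, at 6.05, 5.69 and 5.69 CPM, and Atp4a did not pass the test (FDR = 0.216, edgeR quasi-likelihood test). Chga was present in all 6 animals at no more than 1.37 CPM, too low to be tested. Pgc, Muc5ac, Muc6, Tff2, Gkn1, Gkn2 and Gast were at 0 in all lab rats. Muc5ac, a mucin of gastric surface cells, was the called gene of this list, with 17, 12 and 33 reads in woodrats 1, 2 and 3. The make-up of the tissue pieces differed between and within the species, as given below beside the values it moves with. In whole tissue, fewer cells of a type and less RNA per cell cannot be told apart.

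Of the 6 keratins, Krt4 had the largest difference toward woodrats. Woodrats 1, 2 and 3 had 4523, 10028 and 14117 CPM of Krt4 (ENSMUSG00000059668.5), and lab rats 1, 2 and 3 had 380, 1615 and 839 CPM. Every woodrat lay above every lab rat, and the lowest woodrat, at 4523 CPM, was still above the highest lab rat, at 1615 CPM. Mean CPM was 9556 ± 4814 for woodrats against 945 ± 624 for lab rats (SD, n = 3 each), a fitted log2 fold change of 3.34 with a standard error of 0.68, or 10.1-fold. Leaving out lab rat 2, the highest lab rat, raised the log2 fold change to 3.97, or 15.7-fold, and leaving out woodrat 3 lowered it to 2.95, or 7.70-fold.

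Krt13, the type I partner of Krt4, was abundant in all 6 animals and overlapped between the species. The CPM of Krt13 (ENSMUSG00000044041.4) was 8386, 17524 and 19059 in woodrats 1, 2 and 3, against 8400, 9196 and 13133 in lab rats 1, 2 and 3. Woodrat 1 was at the level of lab rat 1, and the other woodrats were above all lab rats. The means were 14990 ± 5770 CPM (SD, n = 3) and 10243 ± 2534 CPM (SD, n = 3), and the log2 difference was 0.55 (standard error 0.51), which was about as large as its error. In CPM the values of Krt4 were thus separated between the species while those of Krt13 overlapped. Relative to epithelium markers, as given below, neither gene overlapped.

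**Figure D1:**
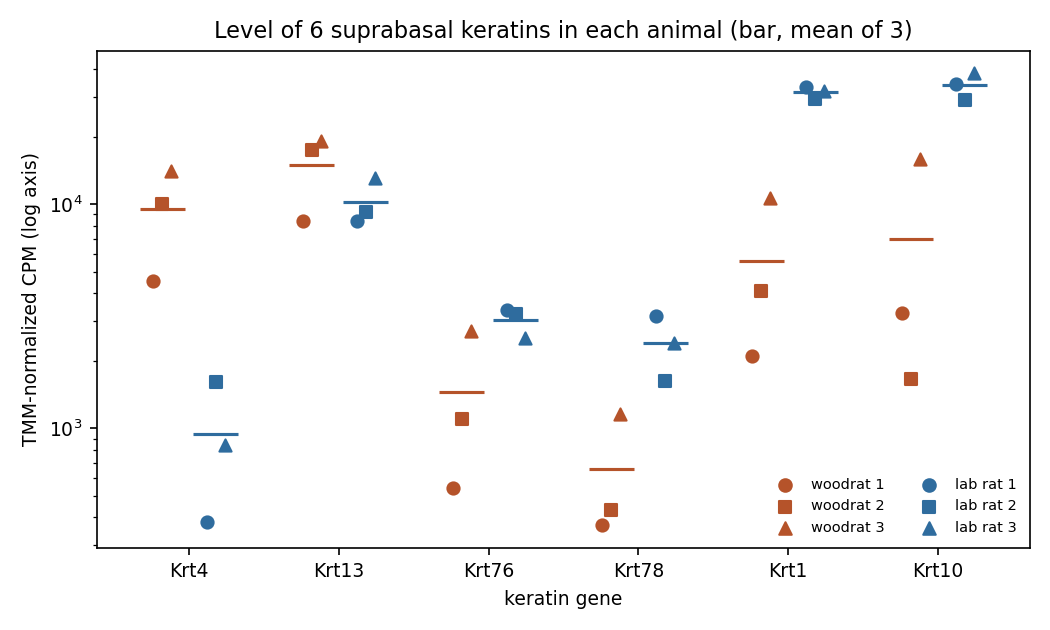
TMM-normalized CPM on a log axis for each of the 6 keratins, with woodrats in orange and lab rats in blue, a symbol for each animal and a bar at the mean of 3. Krt4 is higher in all woodrats, Krt78, Krt1 and Krt10 are higher in all lab rats, and the species overlap for Krt13 and Krt76.

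Krt1 and Krt10, the epidermal pair, had the largest differences of the 6 toward lab rats. Krt1 (ENSMUSG00000046834.6) had 33498, 29447 and 32067 CPM in lab rats 1, 2 and 3 and 2095, 4082 and 10614 CPM in woodrats 1, 2 and 3. The lab rats were close together and the woodrats were not, with a range of 1.14-fold among lab rats and 5.07-fold among woodrats. Mean CPM was 31670 ± 2054 for lab rats against 5597 ± 4457 for woodrats (SD, n = 3 each), and the log2 fold change was -2.50 (standard error 0.68), or 5.66-fold higher in lab rats.

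For Krt10 (ENSMUSG00000019761.9), lab rats 1, 2 and 3 had 34481, 29070 and 38380 CPM and woodrats 1, 2 and 3 had 3280, 1666 and 15990 CPM. Woodrat 3 stood apart from the other woodrats, with a range of 9.60-fold among the woodrats against 1.32-fold among the lab rats, but it still lay below the lowest lab rat. Mean CPM was 33977 ± 4676 for lab rats against 6979 ± 7846 for woodrats (SD, n = 3 each), a log2 fold change of -2.28 (standard error 0.85), or 4.87-fold higher in lab rats. Leaving out woodrat 3 changed this value to -3.78 for Krt10, or 13.7-fold, and to -3.36 for Krt1, or 10.3-fold.

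Krt78 followed the epidermal pair. Its CPM (ENSMUSG00000050463.8) was 3166, 1621 and 2397 in lab rats 1, 2 and 3 and 369, 433 and 1163 in woodrats 1, 2 and 3. Every lab rat was above every woodrat. The means were 2395 ± 773 CPM (SD, n = 3) and 655 ± 441 CPM (SD, n = 3), and the log2 fold change was -1.87 (standard error 0.52), or 3.66-fold higher in lab rats and 5.97-fold without woodrat 3.

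Krt76 leaned the same way with overlapping values. Lab rats 1, 2 and 3 had 3374, 3225 and 2529 CPM of Krt76 (ENSMUSG00000075402.1), and woodrats 1, 2 and 3 had 539, 1104 and 2716 CPM. Woodrat 3 lay inside the range of the lab rats, and the other woodrats lay below it. The log2 fold change was -1.07 (standard error 0.56), and -1.89 without woodrat 3. The level of Krt76 is uncertain in both species, because a further count table in the study's supplement gives it far fewer reads in the same animals. That table also gives more reads of Krt4, Krt13 and Krt1 in every animal and of Krt10 in all but woodrat 2, and nearly the same for Krt78. Which table is closer to the transcripts was not tested.

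At an FDR below 0.01, 1 of the 6 keratins, Krt4, was among the genes called between the species, against 20.0% of all genes tested (10.3% higher in woodrats and 9.71% higher in lab rats). Krt4 was called in 8 of 14 alternative fits. Its call was lost with total counts, with the replicate number as a block, without woodrat 2 and without each of lab rats 1, 2 and 3. Krt78, Krt1 and Krt10 were called as well without woodrat 3 and by DESeq2, and Krt1 and Krt10 also with scaling to the epithelium markers. The values of the species did not overlap for 4 of the 6, 1 of them higher in woodrats and 3 higher in lab rats, against 56.2% of all genes tested (28.8% and 27.4%). Since the members were chosen with these values known, neither count carries information about them as a group.

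The balance of the esophageal and epidermal types differed between the species in every animal. Of the reads of Krt4, Krt13, Krt1 and Krt10 together, Krt4 and Krt13 made up 70.6%, 82.7% and 55.5% in woodrats 1, 2 and 3, against 11.4%, 15.6% and 16.6% in lab rats 1, 2 and 3. In every woodrat more than 55% of these reads came from the esophageal type, and in every lab rat fewer than 17% did. The mean share was 69.6 ± 13.6% for woodrats against 14.5 ± 2.72% for lab rats (SD, n = 3 each). These are shares of reads and not of molecules, since no transcript lengths were used here and a longer transcript gives more reads. The 95% Wilson intervals of the single shares were at most 0.584 percentage points wide and cover counting error only, so the spread between animals sets the precision. With Krt76 and Krt78 counted among the non-epidermal members, the shares were 71.2 ± 12.7% in woodrats and 20.2 ± 1.58% in lab rats.

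**Figure D2:**
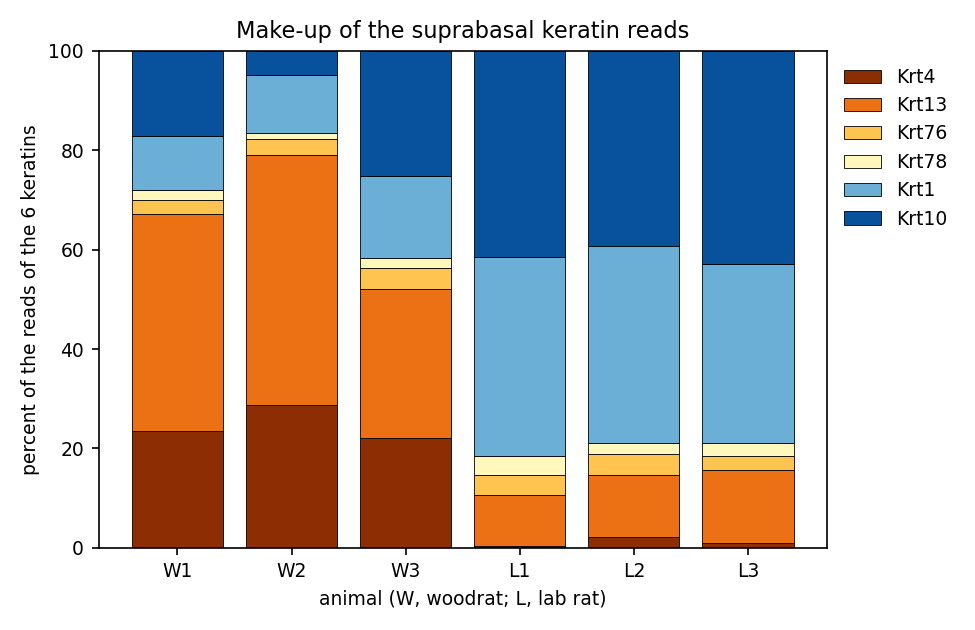
Stacked bars of the percent of the summed reads of the 6 keratins that each gene contributes in each animal (W1 to W3, woodrats; L1 to L3, lab rats). Krt4 and Krt13 (dark orange shades) make up most of the bar in woodrats, and Krt1 and Krt10 (blue shades) make up most of it in lab rats.

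Together the 6 keratins took up a smaller part of the woodrat libraries. They accounted for 1.72%, 3.55% and 6.77% of all counted reads in woodrats 1, 2 and 3 and for 9.19%, 8.24% and 7.47% in lab rats 1, 2 and 3. Within the reads of all 40 keratin genes, they held 74.6 ± 0.931% in woodrats and 89.8 ± 1.41% in lab rats. Keratins other than these 6 thus had a larger share in woodrats, and this share was alike among the woodrats although their total of keratin reads ranged from 2.32% to 8.95% of the library. The summed level of Krt4 and Krt13 was 24545 ± 10462 CPM for woodrats against 11188 ± 2617 CPM for lab rats (SD, n = 3 each). That of Krt1 and Krt10 was 12576 ± 12151 CPM for woodrats against 65647 ± 6297 CPM for lab rats, 5.22-fold higher in the latter.

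Ratios between genes within an animal do not depend on how the libraries are scaled to each other, and transcript lengths cancel when such a ratio is compared between animals, as far as they are alike in both species. Between the type II keratins, woodrats 1, 2 and 3 had 2.16, 2.46 and 1.33 reads of Krt4 for each read of Krt1, and lab rats 1, 2 and 3 had 0.0113, 0.0549 and 0.0262. The log2 ratio was 0.94 ± 0.47 for woodrats against -5.30 ± 1.14 for lab rats (SD, n = 3 each), which is a difference of 6.24 (standard error 0.71), or 75.7-fold. The difference between the species was larger than the whole range within either of them.

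Between the type I keratins the shift had the same direction and was smaller. There were 2.56, 10.5 and 1.19 reads of Krt13 for each read of Krt10 in woodrats 1, 2 and 3, against 0.244, 0.316 and 0.342 in lab rats 1, 2 and 3. The log2 ratios were 1.67 ± 1.59 and -1.75 ± 0.26 (SD, n = 3 each), and they differed by 3.42 (standard error 0.93), or 10.7-fold. The woodrats differed widely from one another, and the difference was 2.55 without woodrat 2 and 4.12 without woodrat 3. The species did not overlap.

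Within the esophageal pair, the type II member was in a different proportion to the type I member in the 2 species. For each read of Krt13 there were 0.539, 0.572 and 0.741 reads of Krt4 in woodrats 1, 2 and 3, against 0.0452, 0.176 and 0.0639 in lab rats 1, 2 and 3. The woodrats were close together and all above the lab rats. The difference of the log2 ratios was 2.94 (standard error 0.60), or 7.67-fold. Read the other way, lab rats had between 5.69 and 22.1 reads of Krt13 for each read of its usual partner Krt4, and woodrats between 1.35 and 1.85.

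Within the epidermal pair the mean proportion was close in both species. The reads of Krt1 for each read of Krt10 were 0.972, 1.01 and 0.836 in lab rats 1, 2 and 3 and 0.639, 2.45 and 0.664 in woodrats 1, 2 and 3. Lab rats held this ratio within a narrow range, whereas woodrat 2 departed from the other woodrats through its low Krt10. The difference of the mean log2 ratios was 0.11 with a standard error of 0.64, so that a difference between the species was not detectable with this spread.

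**Figure D3:**
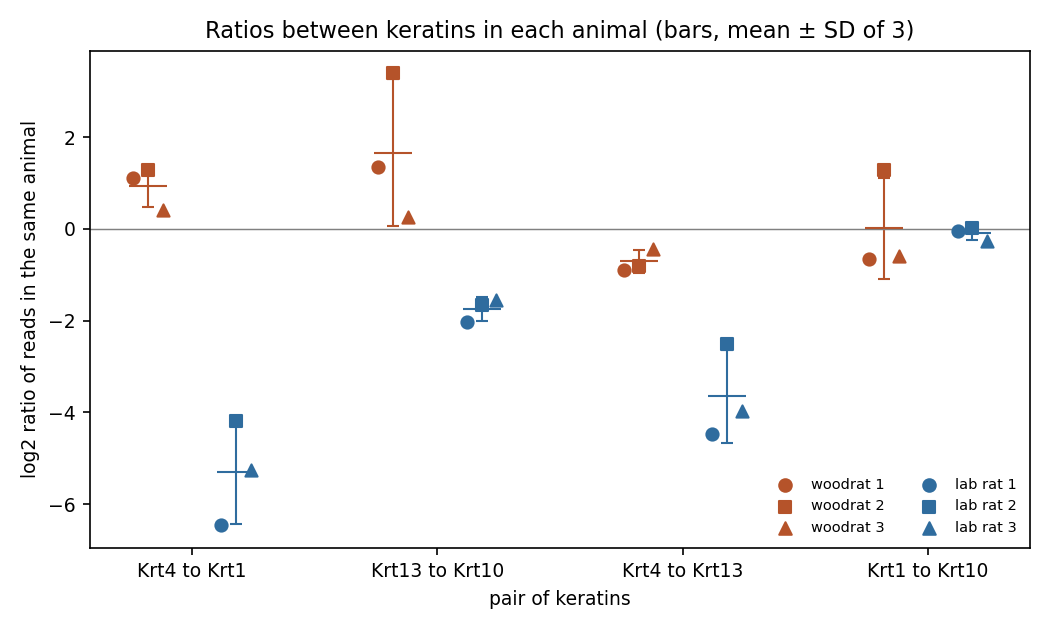
Log2 ratio of reads within each animal for 4 pairs of keratins, with a symbol for each animal and the mean and SD of 3 animals as bars (woodrats orange, lab rats blue). The species are separated for the first 3 pairs, most widely for Krt4 to Krt1, and overlap for Krt1 to Krt10, where woodrat 2 lies apart from the other woodrats.

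The levels moved with the make-up of the tissue pieces among the woodrats. Markers of smooth muscle (6 of 8 listed genes in the files) summed to between 38464 and 118490 CPM in woodrats and between 10426 and 19186 CPM in lab rats, with woodrat 1 the highest and woodrat 3 the lowest of the woodrats. Markers of stratified epithelium (13 of 13 genes) summed to between 4121 and 8815 CPM in woodrats and between 7962 and 13463 CPM in lab rats, with woodrat 1 the lowest and woodrat 3 the highest of the woodrats. For 5 of the 6 keratins woodrat 1 was also the lowest and woodrat 3 the highest woodrat. Krt10 was the exception, with its lowest value in woodrat 2. Leukocyte markers (6 of 6 genes) summed to between 12.5 and 36.7 CPM in woodrats and between 173 and 287 CPM in lab rats. Cd74 made up most of the lab rat sums. It was at 225, 154 and 270 CPM in lab rats 1, 2 and 3 and at 7.42, 7.5 and 24.0 CPM in the woodrats. Ptprc and Itgam were called lower in woodrats as well, and Cd68 overlapped, with means of 10.6 and 11.3 CPM. Cd3e and Cd79a were too low to be tested, with 4 and 19 reads in all woodrats and 20 and 2 in all lab rats. Fibroblast markers (5 of 5) summed to between 1047 and 2531 CPM in woodrats and between 1992 and 2576 CPM in lab rats. Of the simple epithelium markers, 2 of 3 were in the files, and they summed to at most 8.40 CPM in any woodrat and 37.1 CPM in any lab rat. The 2 genes went opposite ways. Krt20 was called lower in woodrats, with 0, 0 and 2 reads in woodrats 1, 2 and 3 against 133, 222 and 133 in lab rats 1, 2 and 3. Krt18 was too low to be tested, with 43, 3 and 9 reads in the woodrats against 4, 2 and 4 in the lab rats. The part of these differences in the keratin levels was not tested.

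**Figure D4:**
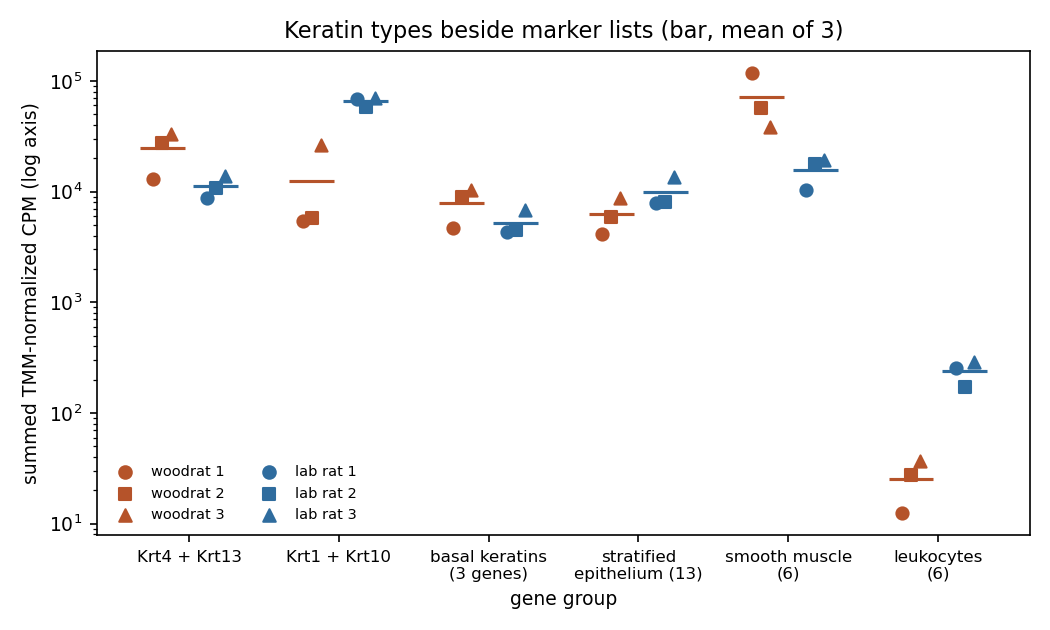
Summed TMM-normalized CPM on a log axis for the keratin types and for marker lists, a symbol for each animal and a bar at the mean of 3 (woodrats orange, lab rats blue; the number of genes measured is in parentheses). Woodrat 1 has the highest smooth muscle sum, at 118490 CPM, and the lowest stratified epithelium sum, at 4121 CPM.

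The keratins were also set against the epithelium alone, as reads for every 100 reads of the 13 stratified epithelium markers, none of which is one of the 6 keratins. On this scale Krt4 was 110, 170 and 160 in woodrats 1, 2 and 3, against 4.77, 19.9 and 6.23 in lab rats 1, 2 and 3. Krt13 was 204, 298 and 216 in the woodrats against 105, 113 and 97.5 in the lab rats, so that the overlap seen for Krt13 in CPM was gone, with 2.27-fold more in woodrats. Krt1 was 50.8, 69.3 and 120 in the woodrats against 421, 363 and 238 in the lab rats. Krt10 was 79.6, 28.3 and 181 against 433, 358 and 285, in the same order. Krt78 was 9.84 ± 3.02 for woodrats against 25.8 ± 12.1 for lab rats (SD, n = 3 each), and Krt76 overlapped, with 20.9 ± 9.05 and 33.6 ± 12.9. Krt4 and Krt13 together were 3.33-fold higher in woodrats on this scale and Krt1 and Krt10 together 3.96-fold higher in lab rats. The woodrats were also closer together than in CPM for all 6 keratins, although woodrat 3 kept the highest woodrat values of Krt76, Krt78, Krt1 and Krt10. The lab rats were farther apart than in CPM for all but Krt13. Lgals7 was the largest of the 13 markers in every animal, at 2255, 2660 and 6846 CPM in lab rats 1, 2 and 3. The 13 markers summed to 7962, 8117 and 13463 CPM in these animals. In woodrats 1, 2 and 3 Lgals7 was at 2283, 2366 and 2183 CPM, and the 13 markers summed to 4121, 5887 and 8815 CPM. How far the spread within either species, or the order of the woodrats, comes from Lgals7 on this scale was not tested.

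In the fit across all genes, scaling the libraries to the same 13 markers moved the median log2 fold change of all genes from 0.03 to 0.71, and the calls from 1292 higher and 1224 lower in woodrats to 2392 higher and 569 lower. The log2 fold changes of Krt4, Krt13, Krt76, Krt78, Krt1 and Krt10 were then 3.83, 1.18, -0.69, -1.39, -2.09 and -1.90. Relative to the median of all genes they were 3.12, 0.47, -1.40, -2.11, -2.80 and -2.61, against 3.31, 0.52, -1.10, -1.90, -2.53 and -2.31 in the TMM scaling. None of the 6 changed direction under this scaling, under DESeq2's size factors or under total counts.

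**Figure D5:**
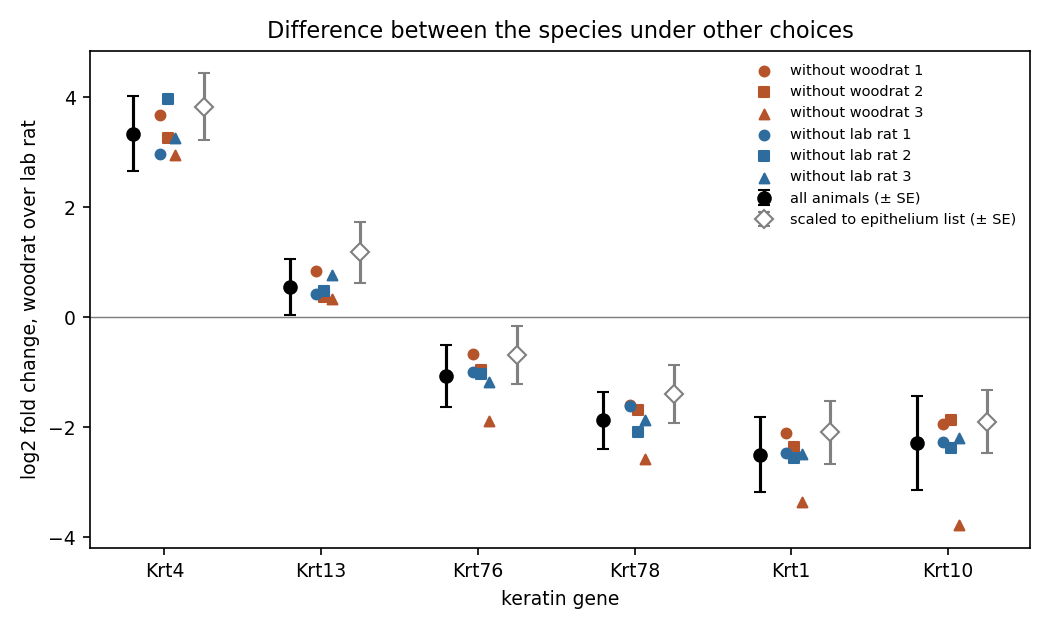
Log2 fold change of each keratin, woodrats over lab rats, from the fit with all 6 animals (black, ± SE), from fits that each leave out 1 animal (colored symbols) and from the fit scaled to the stratified epithelium markers (open diamonds, ± SE). All values keep their side of 0, and leaving out woodrat 3 (orange triangles) gives the lowest value for all 6 genes.

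The spread within a species differed between the keratins. In lab rats the coefficient of variation of the CPM was 6.49% for Krt1, 13.8% for Krt10, 14.8% for Krt76, 24.7% for Krt13, 32.3% for Krt78 and 66.1% for Krt4, beside a median of 26.6% over the tested genes with lab rat reads. In woodrats it was 38.5% for Krt13, 50.4% for Krt4, 67.3% for Krt78, 77.7% for Krt76, 79.6% for Krt1 and 112% for Krt10, beside a median of 26.3%. In CPM, Krt1 and Krt10 were thus the least variable of the 6 in lab rats and Krt13 and Krt4 the least variable in woodrats. Per 100 reads of the epithelium markers the order in lab rats was another, with 7.47% for Krt13, 20.6% for Krt10, 27.4% for Krt1, 38.4% for Krt76, 46.8% for Krt78 and 81.0% for Krt4. The high Lgals7 of lab rat 3 enters this order through the marker sum, and the order without that gene was not computed. In woodrats Krt13 and Krt4 were the least variable on this scale too, at 21.4% and 22.1%. Lgals7 was a larger part of the marker sum in woodrat 1 than in woodrat 3, and the woodrat order without it was not computed either. With 3 animals in each group, these coefficients are themselves imprecise.

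The profiles over the 6 animals were compared by the root mean square distance between log2 CPM values, each centered on its own mean after adding a prior count of 2, among 8265 other genes with a mean of at least 10 CPM. Krt15, a keratin of basal cells, was the closest of all to Krt13, at a distance of 0.10, followed by Rtn4r and Gcat at 0.13 and 0.14. Krt15 had 3902, 7650 and 8678 CPM in woodrats 1, 2 and 3 and 3286, 3597 and 5542 CPM in lab rats 1, 2 and 3. Krt4, by contrast, was 1.59 from Krt13 and had no close neighbor, the nearest being Abca5, Epha7 and Rufy4 at 0.60, 0.62 and 0.63. The genes nearest to Krt1 were Pglyrp4, Gm94 and Spag1 at 0.13, 0.16 and 0.17. Those nearest to Krt10 were Ube2c, Ccnb1 and Kif22 at 0.32, 0.32 and 0.37, which are known for their roles in mitosis and, like Krt10, were lowest in woodrat 2 among the woodrats. They were at 1.11, 0.555 and 0.972 CPM in woodrat 2 and at 2.54, 1.37 and 1.56 CPM in woodrat 1. These are few reads, with 3 counts at 0.416 CPM in woodrat 2, so the order of these woodrats is uncertain for them. Krt1 was the 26th closest gene to Krt10, Krt78 was the 89th closest to Krt1, and Krt13 was the 2021st closest to Krt4. All profiles come from the same 6 libraries, and the distances are a description only.

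The basal keratins, which mark the layer below, did not pass the test between the species. Krt5 was at 250, 513 and 794 CPM in woodrats 1, 2 and 3 and at 686, 577 and 740 CPM in lab rats 1, 2 and 3. Krt14 was at 674 ± 148 CPM for woodrats against 424 ± 151 CPM for lab rats (SD, n = 3 each). Of the 3 genes, 0 were called by edgeR, 0 had an unadjusted p under 0.05 in either direction, and 0 were called by DESeq2.

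Genes that work beside these keratins were counted from lists, beside 20.0% called over all genes. Of 14 measured partners of the epidermal type, 4 were higher and 1 was lower in woodrats, with 9 not past the threshold and a median log2 fold change of -0.06 (0.03 over all genes). At an unadjusted p under 0.05 there were 5 higher and 2 lower, and DESeq2 called 4 higher and 3 lower. The median of the list was -0.64 without woodrat 3 and 0.33 without woodrat 1. The highest was filaggrin (Flg), which bundles keratin filaments in the cornified layer, with 8.01, 24.8 and 171 CPM in woodrats 1, 2 and 3 and 2.11, 0.662 and 0.770 CPM in lab rats 1, 2 and 3 (log2 fold change 5.76, standard error 1.18, FDR = 0.00648, edgeR quasi-likelihood test, called in 2 of the 6 fits that left out 1 animal). It was 3.72 without woodrat 3, the highest woodrat, and 6.54 without lab rat 1. The lower gene was Krtdap, a secreted protein of differentiating keratinocytes, with 1666, 2447 and 1876 CPM in the woodrats against 8711, 7877 and 17056 CPM in the lab rats (log2 fold change -2.49, standard error 0.49, FDR = 0.00523, called in 1 of those 6 fits). Krt77, a further suprabasal keratin of the epidermis, and Flg2 and Klk7 completed the calls and are named after their values were seen. Krt77 was at 13.3, 16.7 and 131 CPM in the woodrats against 2.61, 1.49 and 0.385 CPM in the lab rats, toward woodrats and opposite to Krt1 (log2 fold change 5.08, standard error 1.05, FDR = 0.00656, edgeR). It was 3.24 without woodrat 3 and 5.78 without lab rat 1. In lab rats 1, 2 and 3 these differences rest on few reads, 17, 4 and 4 of Flg and 21, 9 and 2 of Krt77. Loricrin (Lor), the main protein of the epidermal cornified envelope, was at 4242 ± 211 CPM for woodrats against 7882 ± 2060 CPM for lab rats and did not pass the test (FDR = 0.107, edgeR). The calls of this list dropped to 1 without lab rat 1, 1 without lab rat 2, 2 without lab rat 3 and 3 without woodrat 2.

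Of 9 tested partners of the esophageal type, 0 were higher and 1 was lower in woodrats, and 8 did not pass. At an unadjusted p under 0.05 there were 1 higher and 2 lower, and DESeq2 called 0 higher and 2 lower. The lower gene was Sprr3, a cornified envelope precursor of esophageal epithelium, with 33.0, 92.6 and 539 CPM in woodrats 1, 2 and 3 and 5937, 5554 and 5572 CPM in lab rats 1, 2 and 3. Its fitted log2 difference of -4.68 (standard error 0.98, FDR = 0.00702 in edgeR) was opposite in direction to Krt4, and it was no longer called without woodrat 2 or without any of lab rats 1, 2 and 3. The difference was -6.50 without woodrat 3 and -4.17 without woodrat 1. Cornulin (Crnn), a further protein of esophageal epithelium, was too low to be tested, with 5, 11 and 24 reads in the woodrats against 1, 0 and 1 in the lab rats. Rhcg had 5 reads in all woodrats together and 0 in lab rats and was not detectable above 0.372 to 0.578 CPM in the lab rat libraries.

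The regulators of suprabasal differentiation that passed the test were all lower in woodrats. Of 20 tested, 0 were higher and 5 were lower in woodrats (Elf3, Pax9, Barx2, Hes1 and Cebpb), with a median log2 fold change of -0.85, which was -1.82 without woodrat 3 and -0.40 without woodrat 1. At an unadjusted p under 0.05 there were 0 higher and 7 lower, and DESeq2 called 0 higher and 6 lower. The largest difference was in Elf3, an epithelial transcription factor, for which woodrats 1, 2 and 3 had 1, 0 and 1 reads, against 44, 39 and 28 for lab rats 1, 2 and 3 (FDR = 0.000746, edgeR quasi-likelihood test). Elf3 was also called in all 6 fits that left out 1 animal. For Klf4, a regulator of barrier formation, the levels were 36.1, 127 and 326 CPM in the woodrats against 329, 350 and 175 CPM in the lab rats, which overlapped. The number called was 3 without woodrat 1, 1 without woodrat 2, and 1, 2 and 1 without lab rats 1, 2 and 3. It was 1 with the libraries scaled to the stratified epithelium markers, a scaling that took the lower calls over all genes from 1224 to 569. Relative to the median of all genes, the median of the list was then -1.24, against -0.88 in the TMM scaling. The stratified epithelium markers had a median log2 fold change of -0.78 in the TMM scaling, with sums that overlapped between the species. Of these 13 markers, 0 were called by edgeR, with 0 at an unadjusted p under 0.05.

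Among 9 proteins that anchor or bundle keratin filaments, 2 were higher in woodrats, 0 were lower and 7 did not pass. These were Flg, and plectin (Plec), a linker of intermediate filaments that is also made by muscle and is named after its value was seen, with 733, 435 and 565 CPM in woodrats 1, 2 and 3 and 182, 182 and 157 CPM in lab rats 1, 2 and 3. Plec differed by 1.73 on the log2 scale (standard error 0.29, FDR = 0.00289 in edgeR) and was called in 3 of the 6 fits that left out 1 animal. Desmoplakin (Dsp), which ties the filaments to desmosomes, overlapped between the species, with 419, 1168 and 3500 CPM in the woodrats against 1655, 1558 and 905 CPM in the lab rats. Without woodrat 2 the list had 1 call, and it had 0 calls without lab rat 1, without lab rat 2 or without lab rat 3.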

How the data were processed

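RNA-Seq counts of foregut tissue from 3 woodrats and 3 lab rats were analysed, with species and replicate number taken from the sample labels. The authors cleaned the reads with Trimmomatic, joined overlapping mates with FLASH and matched the result to coding transcripts of the mouse by cross_match. Mouse genes prone to ambiguous matches, Krt6a among them, were set aside. The deposited values are raw counts of reads with a unique gene, not normalized. Tool versions are not given in the sources used here. The submitters' processing notes name build mm9 and the methods a GENCODE transcript set. Both species were counted on mouse transcripts, from which woodrats are more distant than rats, and reads of similar keratins can be assigned wrongly. The authors compared this mapping with each species' own transcripts, in a figure of smooth muscle genes. In a secondary analysis they summed keratin and Sprr counts by family, because mapping across species is difficult within these families. Counts of single genes are used here, and the effect of the mapping on the 6 keratins was not tested. Of the 16 listed epidermal partners, 14 were found in the deposited counts. Krt2 was not among them, so it is not one of the 40 keratin genes either. No sequences, lengths or genome positions were used.

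In R 4.3.3, genes reaching 1 CPM in 3 or more animals were kept and fitted with edgeR 4.0.16 (TMM factors, the quasi-likelihood method of earlier versions, species as the only term, prior count 0.125, Benjamini-Hochberg adjustment, FDR below 0.01). The standard error is the size of the log2 fold change divided by the square root of F. The replicates are separate animals, and no pair had counts within sampling noise (chi-square per degree of freedom at least 9.01). Members, lists and tests were chosen with earlier results of these data known. Named were the 6 keratins, the 3 closest genes to Krt4, Krt13, Krt1 and Krt10, and genes at 0 in a species. In each list of related genes, the called gene that changed most in either direction was named too. Krt5, Krt14, Lor, Crnn, Klf4, Dsp and the other called genes named here were added after their values were seen. So were Lgals7, Atp4a, Chga, Krt18, Cd3e, Cd68 and Cd79a. The fit was tested on simulated data with known changes. Alternatives were other size factors, filters, thresholds and tools (DESeq2 1.42.0), scaling to 13 epithelium markers, a replicate block, and each animal left out.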

Additional observations from a re-analysis of the deposited data

How the results depend on the processing

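The number of genes called was 3916 with DESeq2, 5026 at an FDR below 0.05 and 716 with the replicate block, and between 898 (without woodrat 2) and 2626 (without woodrat 3) when 1 animal was left out, with 936, 1050 and 1305 without lab rats 1, 2 and 3. Between 1813 and 2620 were called with other size factors, total counts, other filters and the edgeR 4 method. Of 108 recomputed values of the 6 log2 fold changes and 4 ratios, 105 moved by less than the SD between animals, and the others were Krt13 at 1.18 with scaling to the stratified epithelium markers, and Krt1 and Krt10 without woodrat 3. Some of the 108 could hardly move, so the tally overstates how much was tried. The 4 ratios with the replicate block equal the main values by construction. Adding 0.5 to each count, or a prior count of 2, matters little at these read numbers. Leaving out 1 animal gave 60 of the 108. Leaving out 1 animal gave ranges of 2.95 to 3.97 for Krt4, 0.34 to 0.84 for Krt13, -1.89 to -0.67 for Krt76, -2.58 to -1.59 for Krt78, -3.36 to -2.11 for Krt1 and -3.78 to -1.87 for Krt10. For the log2 ratios the ranges were 5.66 to 6.80 (Krt4 to Krt1), 2.55 to 4.12 (Krt13 to Krt10), 2.53 to 3.51 (Krt4 to Krt13) and -0.52 to 0.44 (Krt1 to Krt10). The share of the esophageal type ranged from 63.0% to 76.7% in woodrats and from 13.5% to 16.1% in lab rats. In lab rats it was 20.2% when the reads of Krt76 and Krt78 were added to those of Krt4 and Krt13.

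Of the lists, the epidermal partners had 1 to 5 calls with 1 animal left out, the esophageal partners 0 to 1 (2 with DESeq2), the regulators 1 to 5 (1 with scaling to the epithelium markers) and the filament partners 0 to 2. With the replicate block, the epidermal, esophageal and filament lists had 0 calls each and the regulators 1. The fits without 1 animal hold fewer animals, and why particular calls were lost was not tested. The labels tie no replicate number to a shared litter or day, and same-numbered animals deviated with correlations of -0.29, -0.09 and -0.28, which gives no sign that a shared number pairs animals. Shares per transcript length were not run because no lengths were used here. Depth did not limit the keratin values, but the low counts of Crnn, Rhcg and Elf3 did limit theirs.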
